A study of Ovis aries with 10 samples.

Results

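The gene FKBP5 gave 3 circular RNAs (circRNAs), which arise when the end of an exon is spliced back to the start of the same or an earlier exon, among 8721 listed in 10 libraries of small-tailed Han sheep. They are all the rows of the deposited table with the gene name FKBP5 and at least 1 entry in a library of the series. Members were thus selected on having junction reads, that is reads across the back-splice, in any library, so their presence is not a result. The libraries fall into 5 from ovariectomized ewes (OR-STH) and 5 from ewes after sham surgery (STH), compared to study what estrogen does in muscle of females. The labelled tissue is longissimus dorsi, a muscle along the spine, but the labels give primary myoblasts as the cell type, with a culture protocol that includes estradiol. No sample carries an estradiol dose, no age is given, and no label ties each library to its own animal. The p-values therefore measure only the spread among these samples, which may be technical.

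FKBP5 encodes FKBP51, a peptidyl-prolyl isomerase of the immunophilin family that binds HSP90 through its tetratricopeptide repeats. It sits in the complexes of HSP90 with the glucocorticoid and progesterone receptors and lowers the response of the glucocorticoid receptor to its hormone. In other mammals its transcription is induced by glucocorticoids and progestins, which makes it part of a feedback loop on steroid signalling, and FKBP51 also binds kinases and phosphatases of the AKT pathway. In skeletal muscle FKBP5 is a commonly used readout of glucocorticoid action.

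The 10 libraries held 35731 to 67061 junction reads and 1889685 to 3185053 non-junction reads, and OR-STH replicate 5 was the deepest in junction reads. The table also records non-junction reads beside each listed circRNA, and what they comprise is not given in the sources used here. Of 20 genes of skeletal muscle fibers 16 hosted a circRNA, while none of 12 genes of proliferating myoblasts did, MYOD1, PAX7 and MKI67 among them. Hosts were 6 of 10 endothelial, 3 of 10 fibroblast, 2 of 10 adipocyte and 1 of 10 immune genes. Among the muscle fiber hosts, ACTA1, MYH1 and CKM had 2 junction reads each, in 1 library each, and TTN had 125 circRNAs. The share of all genes that host a circRNA is not given here, so these counts do not settle which cells were sequenced. Where a circRNA has no entry in a library, it was set to 0 junction reads, although the smallest count recorded is 2.

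All 3 FKBP5 circRNAs are exonic and lie on the minus strand of chromosome 20. Coordinates are those of the deposited table, with starts counted from 1, and its genome build is not given in the sources used here. The one with the most junction reads, novel_circ_0015058, runs from 9763049 to 9816302. It spans 53254 bp, more than all but 105 (1.20%) of the 8721 circRNAs, whose median span is 7689 bp, and joins 3 exons of 104, 126 and 145 bp into a circle of 375 bp. The second, novel_circ_0015056, runs from 9745405 to 9763193, spans 17789 bp and joins 3 exons of 145, 147 and 115 bp into 407 bp. The third, novel_circ_0015055, runs from 9745405 to 9746610, spans 1206 bp and holds 2 exons with 262 bp in all, close to the median spliced length of 291.0 bp.

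The members share exons. In the direction of transcription they use 5 exons, and the third of these, at 9763049 to 9763193, closes novel_circ_0015058 at its end and opens novel_circ_0015056 at its start. The fourth and the fifth make up novel_circ_0015055 and are also the end of novel_circ_0015056. The pair novel_circ_0015055 and novel_circ_0015056 therefore have the same downstream end and differ in the exon where the circle begins. Their reads come from 1 gene and are not independent replicates of a condition.

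**Figure D1:**
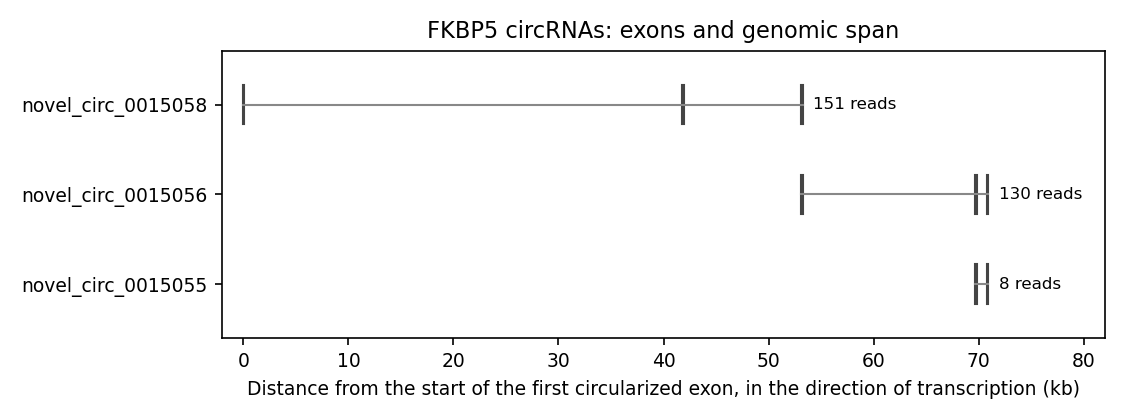
Exons (vertical marks, drawn slightly wider than their length so that they can be seen) and genomic span (line) of the 3 FKBP5 circRNAs, by distance in kb from the first circularized exon; the number of junction reads over all 10 libraries stands at the right. The third exon is shared by novel_circ_0015058 and novel_circ_0015056, and the last 2 exons by novel_circ_0015056 and novel_circ_0015055.

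FKBP5 circRNA reads were on average lower after ovariectomy, but no test passed its threshold. Over all libraries the 3 circRNAs held 289 junction reads, 95 in OR-STH and 194 in STH. By this total 314 of 3436 host genes had more. The circRNA novel_circ_0015058 held 151 of the reads, novel_circ_0015056 held 130 and novel_circ_0015055 held 8.

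The circle with the longest span, novel_circ_0015058, had entries in all 10 libraries. There were 21, 6, 4, 3 and 14 reads across its junction in OR-STH replicates 1 to 5, against 7, 20, 20, 46 and 10 in STH replicates 1 to 5. Divided by library size factors these were 8.66 ± 7.63 normalized junction reads in OR-STH and 22.0 ± 14.6 in STH libraries (SD, n = 5 each). Of the OR-STH libraries, 4 lay below the lowest STH library, and OR-STH replicate 1, at 21.7, lay within the STH range of 9.11 to 45.3. The STH mean was 2.54 times the OR-STH mean, and the two-sided exact permutation p was 0.0635, 0.317 after Benjamini-Hochberg adjustment over the 5 permutation tests made. Scaled by library totals alone the exact permutation p was 0.127, and with 1 library left out it ran from 0.0397 to 0.175. It was 0.0397 without OR-STH replicate 1 and 0.0476 without STH replicate 1, and between 0.0556 and 0.175 without each of the other 8. Without STH replicate 4 the difference in means, OR-STH minus STH, was -7.55 in place of -13.4 normalized junction reads, with an exact p of 0.167.

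This circRNA reached 10 scaled reads in too few libraries for the fit across all circRNAs. With every circRNA of 2 or more reads in at least 5 libraries tested, limma gave it a log2 fold change, OR-STH over STH, of -1.39 ± 0.58 (SE) and an adjusted p of 0.564. The authors' deposited table gives it group means of 8.45 in OR-STH and 21.2 in STH, with p = 0.0396 and an adjusted p of 0.966. By that p it is 1 of 71 of 8721 circRNAs (0.814%) lower in OR-STH at p under 0.05 in the authors' deposited table. The other 2 members were not: the authors' deposited table gives p = 0.122 for novel_circ_0015056 and 0.665 for novel_circ_0015055.

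The second circle, novel_circ_0015056, was listed in every STH library and in 3 OR-STH libraries. It had 10, 8 and 26 junction reads in OR-STH replicates 1, 3 and 5 and no entry in OR-STH replicates 2 and 4, against 19, 15, 22, 17 and 13 in STH replicates 1 to 5. Normalized junction reads were 6.98 ± 6.97 in OR-STH and 19.3 ± 4.88 in STH libraries (SD, n = 5 each). The groups overlapped through OR-STH replicate 5, at 16.1, which lay above STH replicate 5, at 13.1.

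Of the 3 members, novel_circ_0015056 was the 1 that passed the filter of the limma voom fit, and it did not pass the threshold, nor did any other circRNA tested (0 of 738, 0.0%). Its STH libraries alone met the filter, while OR-STH replicates 2, 3 and 4 did not reach 10 scaled reads. It thus entered the fit through the group in which it was higher. Without adjustment 42 circRNAs had p under 0.05, of which 33 (4.47%) were lower in OR-STH, and limma trend on log2 values with a pseudocount of 1 likewise called 0. That balance depended on the scaling: with library totals alone 39 had an unadjusted limma p under 0.05, 27 higher and 12 lower in OR-STH. For novel_circ_0015056 limma fitted -2.48 ± 1.11 (SE) as the log2 fold change (adjusted p = 0.781), where the median over all circRNAs tested was -0.04. The estimate rests on the libraries without an entry: it was -1.60 without OR-STH replicate 2 and -1.19 without OR-STH replicate 4. As fitted values of counts at 0 depend on a small added count, the ratio of means, with STH at 2.76 times OR-STH, is the plainer measure.

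The smallest circle, novel_circ_0015055, was near the lowest count the table lists. It had 3 junction reads in OR-STH replicate 5, against 2 and 3 in STH replicates 2 and 5, and no entry in the other 7 libraries. At 0.372 ± 0.831 normalized junction reads in OR-STH and 1.09 ± 1.50 in STH libraries (SD, n = 5 each), a difference was not detectable at this depth (exact permutation p = 0.444).

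Summed over the gene, FKBP5 had 31, 6, 12, 3 and 43 junction reads in OR-STH replicates 1 to 5, against 26, 37, 42, 63 and 26 in STH replicates 1 to 5. Normalized to the library, the sums were 32.2, 6.04, 12.8, 2.62 and 27.4 in OR-STH, against 34.9, 41.9, 45.2, 61.6 and 26.1 in STH. OR-STH replicates 2, 3 and 4 lay below all STH libraries, and OR-STH replicates 1 and 5 lay between the lowest STH library and the next. In ascending order of the sum the OR-STH replicates ran 4, 2, 3, 5 and 1, and the STH replicates 5, 1, 2, 3 and 4.

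The means of these sums were 16.2 ± 13.0 in OR-STH and 41.9 ± 13.2 in STH libraries (SD, n = 5 each), which puts STH at 2.59 times OR-STH. The limma voom fit on host sums gave FKBP5 a log2 fold change of -1.73 ± 0.51 (SE). Its unadjusted p of 0.00278 ranked second of 753 hosts tested, but the adjusted p was 0.697 and 0 of 753 hosts (0.0%) passed. At an unadjusted p under 0.05, 45 hosts stood out, 33 of them (4.38%) lower in OR-STH. With library totals alone there were 52 such hosts, 38 higher and 14 lower in OR-STH. The adjusted p of FKBP5 was 0.0889 with all hosts of 2 or more reads in at least 5 libraries tested, and between 0.0889 and 0.919 over the 16 alternatives.

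**Figure D2:**
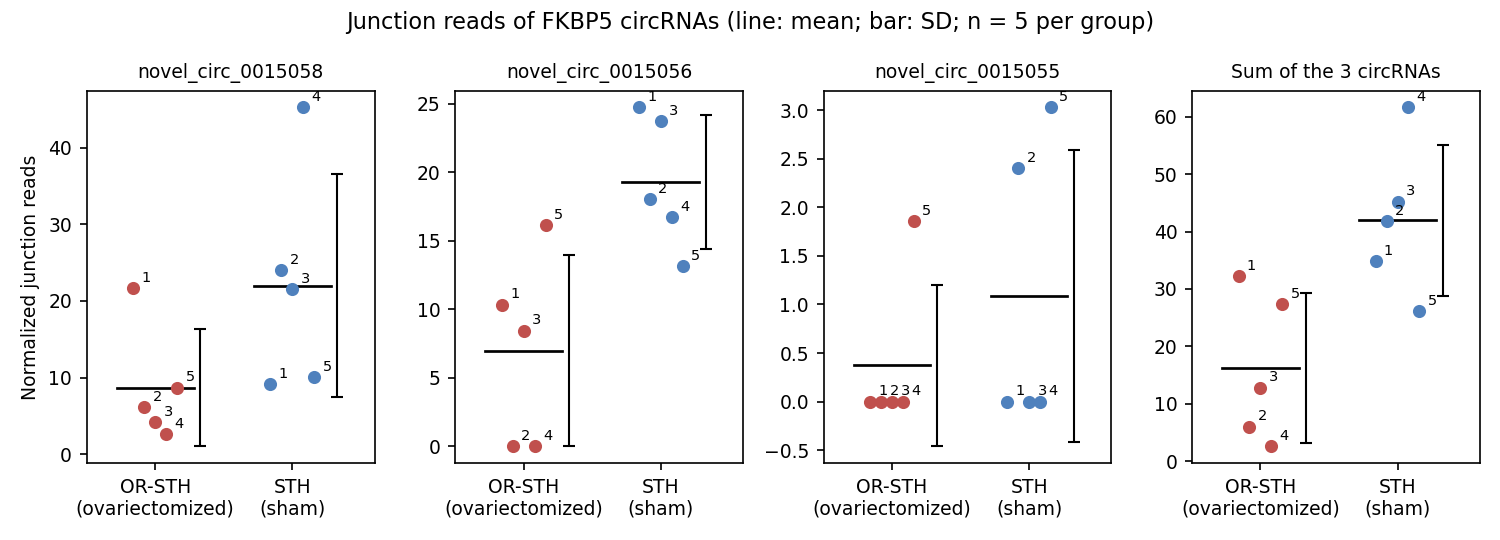
Normalized junction reads of each FKBP5 circRNA and of their sum, 1 point per library labelled with its replicate number, OR-STH on the left and STH on the right; horizontal lines are means and bars SDs (n = 5 per group). The sum runs from 2.62 to 32.2 in OR-STH and from 26.1 to 61.6 in STH libraries, with OR-STH replicates 1 and 5 inside the STH range.

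The number of FKBP5 circRNAs listed and the balance between them did not differ beyond the spread. OR-STH replicates 1 to 5 listed 2, 1, 2, 1 and 3 of them, against 2, 3, 2, 2 and 3 in STH replicates 1 to 5 (exact permutation p = 0.397). Of the FKBP5 junction reads, novel_circ_0015058 took 66.7% ± 33.5 in OR-STH and 48.0% ± 17.3 in STH libraries (SD, n = 5 each), with an exact permutation p of 0.286. It took 100.0% in OR-STH replicates 2 and 4, where it was the only member listed, on 6 and 3 reads. In the other 8 libraries its share ran from 26.9% in STH replicate 1 to 73.0% in STH replicate 4, so either of the 2 main circles could lead in both groups.

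The second readout of the same rows was the non-junction reads. For novel_circ_0015058 and for the gene sum, the group means differed by a larger ratio than in junction reads. With the scaling of the main fit the groups did not overlap, but the adjusted threshold was not passed. For the gene sum the unadjusted limma p was 0.00476 in non-junction reads, against 0.00278 in junction reads. Non-junction reads are recorded only where the circRNA itself is listed, so novel_circ_0015058, listed in every library, is the 1 member with a value in all 10. It had 805, 140, 585, 995 and 113 non-junction reads in OR-STH replicates 1 to 5, against 3229, 1060, 1412, 931 and 2413 in STH replicates 1 to 5. Normalized over the circRNAs listed in all libraries, they were 784, 136, 660, 918 and 124 in OR-STH, against 3228, 973, 1302, 960 and 2553 in STH. OR-STH replicates 2 and 5 were by far the lowest and STH replicates 1 and 5 the highest.

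After this scaling every OR-STH library lay below every STH library, by a narrow margin of 918 in OR-STH replicate 4 to 960 in STH replicate 4. Of the 800 circRNAs tested this way, 11 (1.38%) had all OR-STH below all STH libraries. The separation held with median-of-ratios factors, at 914 in OR-STH and 955 in STH, but not with library totals alone, at 987 and 926, or in unscaled reads, at 995 and 931. The means were 524 ± 371 in OR-STH and 1803 ± 1030 in STH libraries (SD, n = 5 each), with STH at 3.44 times OR-STH.

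In the limma voom fit of these non-junction reads, novel_circ_0015058 had a log2 fold change of -2.06 ± 0.73 (SE). It was the lowest of the 800, whose median was 0.03, and remained the lowest of all tested under each of the 16 alternatives run, with values from -2.40 to -1.67. Its unadjusted p of 0.0198 ranked only 64 of 800 and the limma adjusted p was 0.248. Its SD within groups was 1.16 on the log2 scale against a median of 0.31, and 1 of the other circRNAs had a wider one. In that fit 2 of 800 circRNAs (0.25%) passed, those of ASB15 and ACACB, named after their values were seen, and 49 (6.12%) were lower in OR-STH at an unadjusted p under 0.05.

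**Figure D3:**
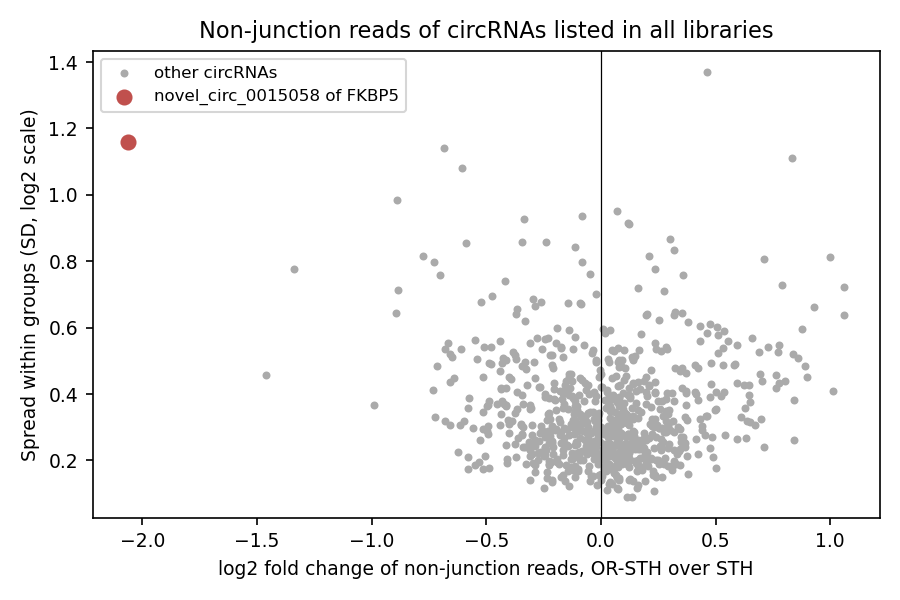
Each point is 1 of the 800 circRNAs listed in all libraries and tested; the horizontal axis is the limma log2 fold change of non-junction reads, OR-STH over STH, and the vertical axis the SD within groups of log2 normalized non-junction reads. The FKBP5 circRNA, in red, stands alone at the left, at -2.06, and has a wide spread, at 1.16.

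The other members were also lower in OR-STH where they had entries. For novel_circ_0015056 there were 511, 352 and 143 non-junction reads in OR-STH replicates 1, 3 and 5, against 2184, 770, 957, 590 and 1716 in STH replicates 1 to 5. All 3 OR-STH values lay below all 5 STH values, in unscaled reads. OR-STH replicate 4, through which the groups overlapped in unscaled reads of novel_circ_0015058, has no entry for novel_circ_0015056. How many other circRNAs with missing entries separate in this way is not given here. In the 8 libraries that list both circles, the non-junction reads of novel_circ_0015056 were 0.602 to 1.27 times those of novel_circ_0015058. Both members put these 8 libraries in the same order. The 2 circles share an exon, and the sources used here do not say whether a read can be recorded for both. For novel_circ_0015055 the counts were 135 in OR-STH replicate 5, against 764 and 1773 in STH replicates 2 and 5.

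Summed over the members of the gene, normalized non-junction reads were 773 ± 495 in OR-STH and 3628 ± 2248 in STH libraries (SD, n = 5 each). A circRNA without an entry in a library added 0 to the sum of its host. In limma the log2 fold change of the FKBP5 sum stood at -2.39 ± 0.66 (SE), and its adjusted p among 1721 hosts was 0.347. From the lowest, that log2 fold change ranked 133 of 1721. Of the 1721 hosts, 4 (0.232%) passed, COBLL1, HELZ, MITD1 and NBN, named after their values were seen. Their log2 fold changes were 6.04, -7.12, 7.11 and 7.90. Because a missing entry counts as 0, values of this size can arise from whether a circRNA was listed. The part of missing entries in these 4 hosts was not tested. In 17 hosts (0.988%) all OR-STH libraries lay below all STH libraries, as in FKBP5. The FKBP5 groups overlapped with library totals alone. At an unadjusted p under 0.05, 61 hosts (3.54%) were lower in OR-STH. These sums hold fewer members in OR-STH replicates 2 and 4, which list 1 circRNA, and the part of this in the difference was not tested. In bulk libraries, fewer cells that use a gene and less of its RNA per cell cannot be told apart.

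Junction and non-junction reads of novel_circ_0015058 did not move together from library to library. In STH the order was exactly opposite: replicates 4, 2, 3, 5 and 1 from high to low in normalized junction reads, and replicates 1, 5, 3, 2 and 4 in non-junction reads. Among OR-STH libraries, replicate 4 had the most non-junction reads and the fewest junction reads. Between groups both means were lower in OR-STH. These orders rest on 3 to 46 junction reads per library.

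**Figure D4:**
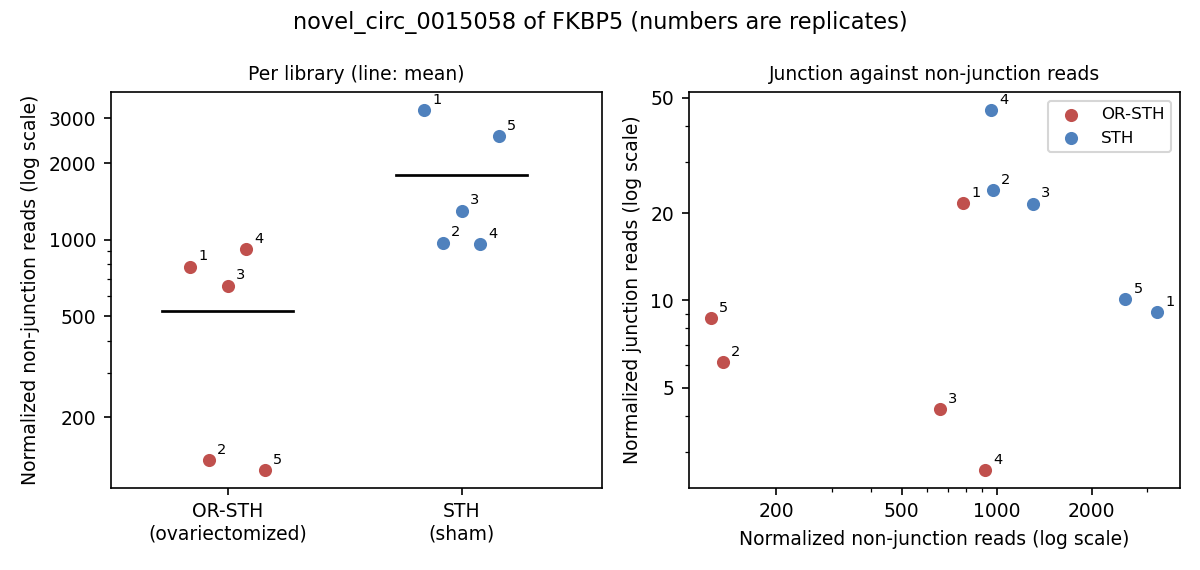
Left, normalized non-junction reads of novel_circ_0015058 per library on a log scale, OR-STH left of STH, with group means as lines; right, its normalized junction reads against its non-junction reads, both on log scales, with replicate numbers. OR-STH replicates 2 and 5 lie at 136 and 124 non-junction reads, and the STH libraries at 960 to 3228.

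The share of junction reads among all FKBP5 reads therefore varied widely. Over the 3 members it was 2.30%, 4.11%, 1.26%, 0.301% and 9.91% in OR-STH replicates 1 to 5, against 0.478%, 1.41%, 1.74%, 3.98% and 0.439% in STH replicates 1 to 5. The exact 95% binomial intervals, which cover counting error only, ran from 7.26% to 13.1% in OR-STH replicate 5 and from 0.0620% to 0.876% in OR-STH replicate 4. Libraries of 1 group thus differed by more than counting error.

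The mean share was 3.58% ± 3.81 in OR-STH and 1.61% ± 1.44 in STH libraries (SD, n = 5 each), a difference below the spread (exact permutation p = 0.365). It rested on OR-STH replicate 5, without which the difference was 0.386 rather than 1.97 percentage points. With all libraries pooled, novel_circ_0015058 had 77.4 non-junction reads per junction read, against a median of 8.44 over the 800 circRNAs, and 40 of them had a higher ratio. By library the ratio ran from 8.07 in OR-STH replicate 5 to 461 in STH replicate 1. That 57.2-fold range compares with a median of 5.52-fold, and 1 other circRNA had a wider one.

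No tested host or circRNA of the lists of genes around FKBP51 passed the adjusted threshold in junction reads or in non-junction reads. Of the 31 genes of the steroid receptor chaperone machinery 6 hosted a circRNA and 1 was tested. This was DNAJB6, a co-chaperone gene, with 21.8 ± 9.08 normalized junction reads in OR-STH and 27.7 ± 9.87 in STH libraries (SD, n = 5 each) and a log2 fold change of -0.44 ± 0.36 (SE, limma adjusted p = 0.822). Its non-junction reads stood at 1175 ± 163 in OR-STH and 1160 ± 118 in STH libraries, a log2 fold change of 0.01. HSP90AA1, HSP90AB1, STIP1, PTGES3 and FKBP4 had no listed circRNA. Of the other 17 genes of the FKBP family, FKBP9 had 10 junction reads, all in OR-STH, and FKBP15 had 11 in OR-STH and 8 in STH.

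Of the 15 genes of steroid and related nuclear receptors 6 hosted a circRNA, all below the filter and so not tested. NR3C1, which encodes the glucocorticoid receptor, had 18 junction reads in OR-STH and 35 in STH libraries, and NR3C2, which encodes the mineralocorticoid receptor, had 33 in OR-STH and 14 in STH. PGR, which encodes the progesterone receptor, had 2 reads, all in STH, and ESR1 had 5, all in OR-STH. Of 34 genes induced by glucocorticoids 7 were hosts and none was tested. Among them the ubiquitin ligase gene FBXO32 had 2 reads in OR-STH and 10 in STH, and SLC7A2, an amino acid transporter gene, had 29 in OR-STH and 25 in STH.

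Of 23 nuclear receptor coregulators 13 hosted a circRNA and 2 were tested in junction reads, both with positive estimates, where 363 of all 753 hosts had one. NCOA6, a coactivator gene, was at 0.16 ± 0.49 (SE) in log2 fold change of junction reads. The other was UBE3A, a ubiquitin ligase and receptor coactivator gene, at 0.45 ± 0.15, with the same adjusted p as FKBP5, 0.697 in limma. Of 24 kinases, phosphatases and other genes of the pathways of FKBP51, 10 were hosts and 5 were tested in junction reads, 3 with positive and 2 with negative estimates and a median of 0.18. PRKAA2, a subunit gene of AMP-activated kinase, was at 0.29 ± 0.19 in log2 fold change, AMBRA1, an autophagy gene, at -0.59 ± 0.43, PHLPP1, an AKT phosphatase gene, at 0.60 ± 0.75, and PRKAA1, another subunit gene of that kinase, at 0.18 ± 0.32.

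Non-junction reads gave other signs for some of these genes. Of 5 coregulator circRNAs listed in all libraries, 3 had positive and 2 negative estimates, with a median log2 fold change of 0.13, where 429 of all 800 were positive. The NCOA6 circRNA novel_circ_0012131 was at -0.64 ± 0.26 (SE) in log2 fold change of non-junction reads, with an unadjusted p of 0.0228 and a limma adjusted p of 0.264. Of 6 circRNAs of the FKBP51 pathway genes, 1 had a positive and 5 a negative estimate, with a median of -0.12. The lowest p among these was that of the PRKAA1 circRNA novel_circ_0013181, at -0.40 ± 0.17 with an unadjusted p of 0.0302 and a limma adjusted p of 0.305.

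In summed junction reads of the lists of cell type genes the groups overlapped, and in non-junction reads no tested circRNA of these lists passed the adjusted threshold. The summed normalized junction reads of the endothelial list ran from 16.1 to 38.2 in OR-STH and from 24.1 to 40.2 in STH libraries, and those of the fibroblast list from 29.7 to 111.8 in OR-STH and from 42.2 to 71.0 in STH. The adipocyte list reached 8.56 in OR-STH and 10.8 in STH, and the immune list 0 in OR-STH and 5.38 in STH. Those of the muscle fiber list ran from 1106 to 1919 in OR-STH and from 1650 to 2405 in STH libraries, with OR-STH replicate 5 lowest. PECAM1, an endothelial gene, had 9 junction reads, all in OR-STH, and PTPRC, PDGFRA and ADIPOQ had none. The other endothelial hosts, OR-STH against STH, were TEK at 24 and 4, PTPRB at 41 and 37, ERG at 5 and 5, VWF at 12 and 18, and FLT1 at 59 and 77. Only FLT1 was tested, at -0.62 ± 0.46 (SE) in log2 fold change of junction reads. Of the fibroblast hosts tested in junction reads, COL14A1 was at -1.11 ± 0.72 and COL15A1 at 0.46 ± 0.38. In non-junction reads the 1 fibroblast circRNA tested, novel_circ_0003754 of the collagen gene COL15A1, ran from 299.9 to 674 normalized reads in OR-STH and from 165 to 268 in STH libraries. Its log2 fold change was 1.01 ± 0.22 (SE) and its limma adjusted p 0.0660, so the adjusted threshold was not passed. Of 14 muscle fiber circRNAs 7 had positive and 7 negative estimates. That of JPH1, a junctophilin gene, ran from 921 to 1432 in OR-STH and from 532 to 911 in STH libraries, and limma gave it 0.67 ± 0.18 (SE) on the log2 scale (adjusted p = 0.115). In junction reads JPH1 went the other way, at -0.81 ± 0.39 (SE, limma adjusted p = 0.759). Of the 9 muscle fiber hosts tested in junction reads, 2 had positive and 7 negative estimates, with a median log2 fold change of -0.42. Among all 753 hosts, 390 had a negative estimate. COL15A1 and JPH1 were named after their values were seen. How many of all tested circRNAs had every OR-STH library above every STH library is not given here. The part of cell content in the FKBP5 values was not tested.

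By order of libraries, the host whose summed junction reads were most like those of FKBP5 was EMC2, a gene of the membrane protein insertion complex of the endoplasmic reticulum. Its Spearman correlation with FKBP5 over the 10 libraries was 0.95, the highest among 752 hosts, followed by TTC7B at 0.81, PPIL4 and SETD7 at 0.79 and REV3L at 0.78. EMC2 averaged 57.5 normalized junction reads in OR-STH and 90.4 in STH libraries. In non-junction reads the order most like that of novel_circ_0015058 was that of the ACACB circRNA novel_circ_0013745, at 0.92 among 799. ACACB encodes the mitochondrial acetyl-CoA carboxylase, and that circRNA averaged 37.3 normalized non-junction reads in OR-STH and 103.6 in STH libraries. These correlations describe 10 libraries that share their grouping and scaling, and the closest hosts were picked for being high.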

How the data were processed

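The deposited table packs whole-number junction and non-junction read counts of each circRNA into lists with sample names; 10 other sample names in the lists match no series label and were left out. The labels' protocols name a strand-specific library kit. The submitters' processing notes name HISAT2. Which program called circRNAs, and on which build, is not given in the sources used here. Span and spliced length, plain scores in bases, are as deposited. The authors' second table holds, per the file headers, group means of normalized read signal, a log2 fold change, p-values and adjusted p-values. The headers give that fold change no direction. It was read as STH over OR-STH, the direction its sign had in 4660 of 4707 circRNAs with both group means above 0. Chromosomes were assigned through host gene IDs in the ARS-UI_Ramb_v3.0 gene table.

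Counts were unpacked and summed per host gene, with 0 where a circRNA has no entry. Scaling used the trimmed mean of M values, with trims of 30% on log ratios and 5% on abundance. Features entered the fit with 10 or more reads, after scaling to the median library, in 5 or more libraries and at least 15 in total. The fit was limma voom (limma 3.58.1, R 4.3.3) with group as the only term, robust variances and Benjamini-Hochberg adjustment over all features tested, at a threshold of 0.05. Normalized reads are reads divided by size factors with geometric mean 1. Single values were tested by two-sided exact permutation over all 252 relabellings, whose smallest possible p is 0.00794. The fit was also run on simulated counts with the same dispersion for every feature of a table and no missing entries. That run cannot show how the fit treats missing entries set to 0, and its outcome is not given here. Every FKBP5 circRNA is named, up to 4 tested hosts per list by smallest p, and the 5 hosts most like FKBP5 by rank correlation. The members and the 12 gene lists were chosen with earlier results of these data known. The fit restricted to circRNAs listed in all libraries was added after the data were seen.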

Additional observations from a re-analysis of the deposited data

Results flagged for a closer look

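Of 26 groups of values checked for a library far from the others, 1 stood out, and chance alone flags about 1 in 20. The circRNA novel_circ_0015055 had 1.86 normalized junction reads in OR-STH replicate 5 and no entry in the other 4 OR-STH libraries. This value is 3 reads, and any circRNA with 1 entry in a group would be marked in the same way.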

How the results depend on the processing

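All FKBP5 results kept their direction under every alternative run. The limma log2 fold change of the junction sum ran from -2.34 to -0.97, of novel_circ_0015056 from -3.12 to -0.91, of the non-junction sum from -2.70 to -1.85, and none passed the adjusted threshold. For novel_circ_0015058 the difference in mean normalized junction reads ran from -16.6 to -7.55 when 1 library was left out. With library totals alone the balance of higher and lower features at an unadjusted limma p under 0.05 moved, and in junction reads it reversed. The numbers of features past the threshold moved. For circRNAs in junction reads, limma called 0, against 4 under a minimum of 2 reads in 5 libraries, 30 with no filter beyond 1 read and 3 with the replicate block. For hosts in junction reads it called 0, against 2, 7 and 1 under the same 3 alternatives and 0 to 1 when a library was left out. For hosts in non-junction reads it called 4, against 7 under a minimum of 2 reads in 5 libraries, 0 with the replicate block and 0 to 4 when a library was left out. For circRNAs listed in all libraries it called 2, against 0 with the replicate block and 0 to 39 when a library was left out, the 39 without STH replicate 4. The cause was not tested.

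The replicate numbers are shared by the groups, but same-numbered libraries did not deviate together: the correlation of their deviations in junction reads ran from -0.11 to 0.18, and 2 of 5 OR-STH libraries correlated best with their own number. With the replicate number as a block, the log2 fold change was -0.97 for the junction sum, -0.91 for novel_circ_0015056, -2.27 for the non-junction sum and -2.10 for the non-junction reads of novel_circ_0015058. For its junction reads the exact sign-flip p over the 5 number pairs was 0.188, in a test that cannot fall under 0.05 with so few pairs. With 3 to 46 junction reads per library, depth limits what can be said of single FKBP5 circRNAs.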
